A study of Mus musculus with 12 samples.

Results

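The NFAT genes are 4 of the 38215 genes in the count table of a study of SF3a1 in RAW264.7 cells, an established mouse macrophage line, and they hold 85 of its 354841 exon bins. The genes, taken by name, are Nfatc1, Nfatc2, Nfatc3 and Nfat5. The family was chosen by the counts of Nfatc1, whose bin 1 lost usage with SF3a1 siRNA in these libraries. Every value of Nfatc1 under SF3a1 siRNA is therefore given as a description with no test, while its LPS responses and all responses of the other 3 members were tested. An exon bin is a stretch of exon between annotated exon boundaries, counted on its own.

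In all, 12 RNAseq libraries crossed a pair of siRNAs (non-targeting control or SF3a1) with LPS (absent or present), which makes 4 groups with 3 samples in each. Cells were nucleofected 24 h ahead of a 4 h exposure to LPS, the bacterial ligand of TLR4, at 20 ng/ml. No group carried another agent, and a cell line of BALB/c origin stands in for primary macrophages. Each library held 12746019 to 41091887 gene counts and, in 11 libraries, 17269833 to 59095475 bin counts. The remaining library, the third of the control siRNA samples given LPS, has gene counts only in what was analysed here. The first replicates were each read in 2 sequencing runs, and libraries of the same replicate number deviated from their group means together, with those of replicate 1 apart from the others. Reads in no annotated gene were 27.2, 21.6 and 20.8% with SF3a1 siRNA without LPS and 18.2, 19.6 and 17.8% with control siRNA, with no overlap. With LPS they were 19.9, 18.2 and 21.4% against 19.8, 19.3 and 17.8%, with overlap. Their part in the results was not tested.

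NFAT proteins are transcription factors. NFATc1, NFATc2 and NFATc3 stay in the cytoplasm while phosphorylated and enter the nucleus after the calcium-dependent phosphatase calcineurin removes the phosphates. NFAT5 lacks calcineurin control and responds to osmotic stress. In the macrophage lineage NFATc1 is known as the main transcription factor of osteoclast formation downstream of RANKL, and short and long NFATc1 proteins arise from alternative last exons. SF3a1 is a subunit of the U2 snRNP, which recognises the branch point of introns.

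The 250 bases before the 2 annotated starts of Nfatc2 are shown because the counts separate these starts. Both lie on the minus strand of chromosome 2 in GRCm38.p6 (RefSeq), and capitals mark the NFAT core motif GGAAA on either strand, with no overlap between motifs.
Nfatc2 downstream start, chr2:168590366-168590615: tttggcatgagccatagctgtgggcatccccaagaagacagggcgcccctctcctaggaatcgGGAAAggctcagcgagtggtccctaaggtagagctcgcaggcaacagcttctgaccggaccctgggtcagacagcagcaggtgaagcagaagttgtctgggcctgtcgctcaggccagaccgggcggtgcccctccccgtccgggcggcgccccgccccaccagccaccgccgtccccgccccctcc
Nfatc2 upstream start, chr2:168601658-168601907: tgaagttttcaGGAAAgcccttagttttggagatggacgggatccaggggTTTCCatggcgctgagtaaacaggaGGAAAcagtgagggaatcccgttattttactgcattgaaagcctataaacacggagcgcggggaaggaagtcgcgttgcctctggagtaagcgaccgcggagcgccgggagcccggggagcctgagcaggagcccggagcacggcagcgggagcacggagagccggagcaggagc
The motif was found 1 time before the downstream start and 3 times before the upstream start. It is present in 55.6% of all 32851 RefSeq promoters over the same 250 bases. Bins 23 to 25, the first exon at the upstream start, had 0 counts in each of the 11 libraries. Bins 19 to 22, the first exon at the downstream start, had 16 to 91 counts per library with a median of 27. Transcription from the upstream start was not detectable at this depth, where 3 counts per library is the limit that a count of 0 allows.

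SF3a1 siRNA lowered the targeted transcript in all 6 libraries that received it. Sf3a1 (ENSMUSG00000002129) was at 191 ± 22.2 CPM with control siRNA and 28.9 ± 2.78 CPM with SF3a1 siRNA without LPS (SD, n = 3). CPM is the count per 1000000 counts of the library, after TMM scaling of library sizes. With LPS it was at 167 ± 23.9 and 34.0 ± 9.72 CPM. The remaining level was 15.1% of control without LPS and 20.3% with LPS, and the log2 fold changes were -2.73 (edgeR quasi-likelihood, Benjamini-Hochberg adjusted p = 1.14e-05) and -2.30 (adjusted p = 1.47e-05).

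Nfatc1 (ENSMUSG00000033016) was the most abundant family member in every group, and its level was higher in each library with SF3a1 siRNA than in any with control siRNA. Without LPS, control siRNA replicates 1, 2 and 3 had 648, 840 and 816 CPM. The SF3a1 siRNA replicates had 2201, 1854 and 1926 CPM. With LPS, the control replicates had 521, 677 and 532 CPM and the SF3a1 siRNA replicates 1831, 1499 and 2053 CPM. The control and SF3a1 siRNA groups did not overlap with or without LPS. The fold difference between group means was 2.60 without LPS and 3.11 with LPS, with fitted log2 fold changes of 1.38 and 1.64. These are RNA levels of whole cultures, in which more RNA per cell and more cells with the transcript cannot be told apart.

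**Figure D1:**
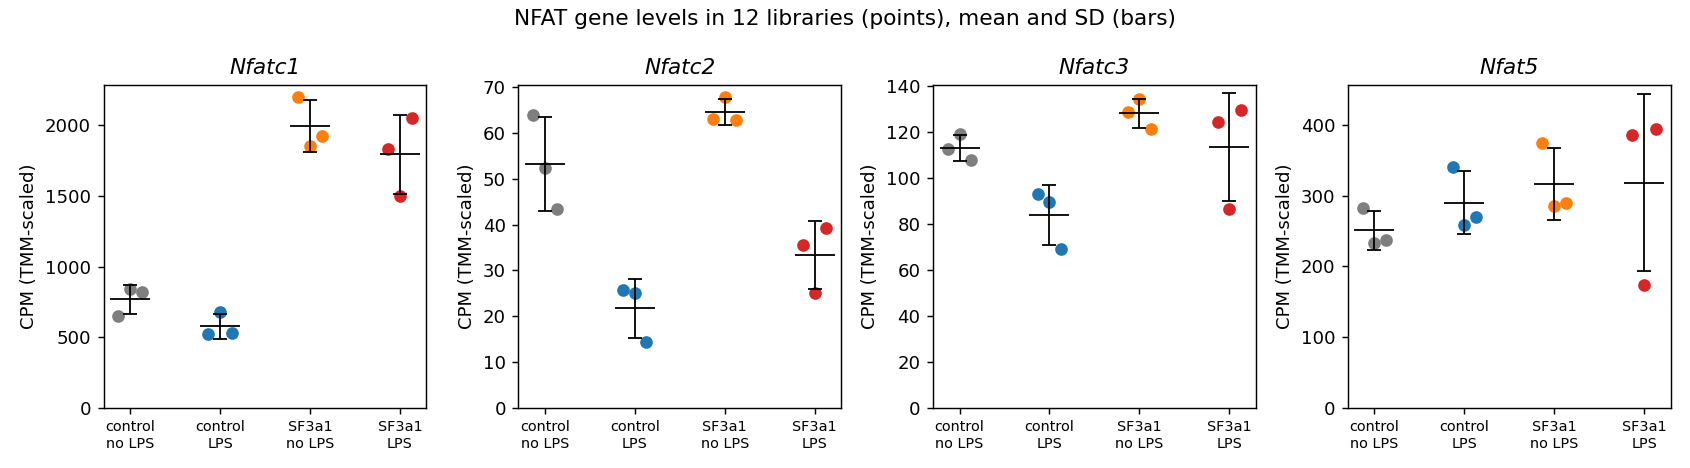
CPM of Nfatc1, Nfatc2, Nfatc3 and Nfat5 (y axis, 1 panel per gene, each with its own scale) in the 4 groups (x axis). Points are libraries, and the long and short bars are the mean and SD of 3 libraries. The 6 SF3a1 siRNA libraries of Nfatc1 sit between 1499 and 2201 CPM, above all 6 control libraries.

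Within Nfatc1, the 3 bins nearest the distal 3′ end had lower mean levels with SF3a1 siRNA, with and without LPS, while bins 4 to 11 and bin 13 had higher ones. Nfatc1 lies on the minus strand of chromosome 18 (80606205 to 80713071, mm10), so that bin 1 is its distal end. Bin 1 (chr18:80606205-80608025, 1821 bases) is the last exon of the long forms, and bins 2 and 3 (80635402 to 80636076) are the exon before it. Bin 4 (chr18:80647435-80649831, 2397 bases) is the end of the last exon of the short forms. The stretch lies within an intron of the long forms. The count files carry no coordinates. Of 3 sets of annotated transcripts that give 13 bins, the one in which counts follow bin length best was used (Spearman 0.32 over the 13 bins, against -0.25 for the next set). Bin 1 is the same in all 3 sets, while the positions and exon roles given for bins 2 to 13 rest on this choice and are uncertain. Counts and shares by bin number do not depend on it.

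Bin 1 had 1532, 1037 and 1159 counts with control siRNA without LPS and 400, 261 and 171 counts with SF3a1 siRNA. With LPS it had 724 and 416 counts with control siRNA (replicates 1 and 2), against 235, 188 and 395 with SF3a1 siRNA. Over the same libraries bin 4 had 6592, 6929 and 7575 counts, then 18189, 13598 and 11121 without LPS. With LPS it had 4992 and 2889 counts with control siRNA and 17651, 11014 and 17725 with SF3a1 siRNA. Raw counts thus moved in opposite directions in bins 1 and 4, in libraries of unequal depth. Relative to the gene, bin 4 changed little, with fitted relative log2 changes of 0.15 without LPS and 0.35 with LPS. Its share of the gene's bin counts was 28.97 ± 8.09% with control siRNA and 33.25 ± 6.35% with SF3a1 siRNA without LPS. With LPS it was 25.98 ± 6.05% (n = 2) and 33.75 ± 7.66%. These shares overlapped between the siRNAs in both conditions. A switch from bin 1 to bin 4 was not tested.

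As a share of the gene's bin counts, bin 1 held 4.57, 4.90 and 5.27% with control siRNA without LPS and 0.572, 0.689 and 0.582% with SF3a1 siRNA. With LPS the shares were 3.15 and 4.36% against 0.334, 0.675 and 0.816%. The lowest control library was above the highest SF3a1 siRNA library in both conditions. Bin 2 held 0.284 to 0.567% with control siRNA, against 0.0423 to 0.0772% with SF3a1 siRNA without LPS. Bin 3 held 0.737 to 1.21% and 0.116 to 0.275% of the counts in these groups. Taken as 1 unit, bins 1 to 3 held 6.30 ± 0.0818% (SD, n = 3) with control siRNA and 0.848 ± 0.0755% with SF3a1 siRNA without LPS. With LPS they held 5.07 ± 0.886% (n = 2) and 0.805 ± 0.251% (n = 3). The control share was 7.43 times the SF3a1 siRNA share without LPS and 6.30 times with LPS. Within replicate numbers the ratio was 6.87, 7.33 and 8.23 without LPS, and 8.39 and 6.61 with LPS.

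**Figure D2:**
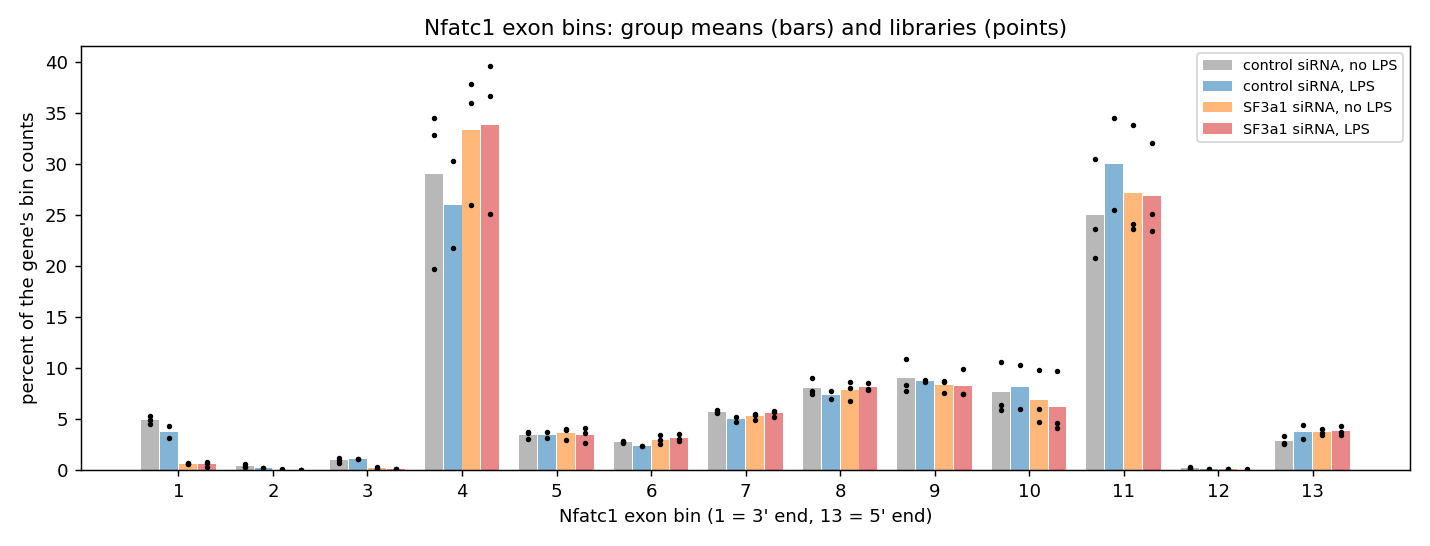
Share of the Nfatc1 bin counts (y axis, percent) held by each of its 13 bins (x axis, from the 3′ end at 1 to the 5′ end at 13). Bars are group means and points the 11 libraries. Bins 1 to 3 are low in both SF3a1 siRNA groups, and bin 4 ranges from 19.7 to 39.6% over the libraries.

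In bin CPM, the bin count per 1000000 bin counts of the library after the same scaling, bins 1 to 3 were at 38.8 ± 5.54 with control siRNA and 14.4 ± 1.72 with SF3a1 siRNA without LPS, a level 2.70 times lower. Bins 4 to 13 were at 577 ± 85.9 and 1680 ± 56.6, a level 2.91 times higher. With LPS the distal bins were at 25.3 ± 8.83 (n = 2) and 12.6 ± 4.75, and the 5 libraries ranged from 7.97 to 31.5 with no overlap between groups. Bin 1 alone did overlap with LPS, at 13.5 and 24.1 with control siRNA and 5.02, 9.67 and 13.9 with SF3a1 siRNA. Bins 4 to 13 were at 465 ± 79.7 and 1536 ± 139 with LPS. Of the counts in the last exon bins 1 and 4, bin 1 took 15.05 ± 3.30% with control siRNA and 1.85 ± 0.320% with SF3a1 siRNA without LPS, and 12.6 ± 0.0560% (n = 2) and 1.72 ± 0.435% with LPS.

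**Figure D3:**
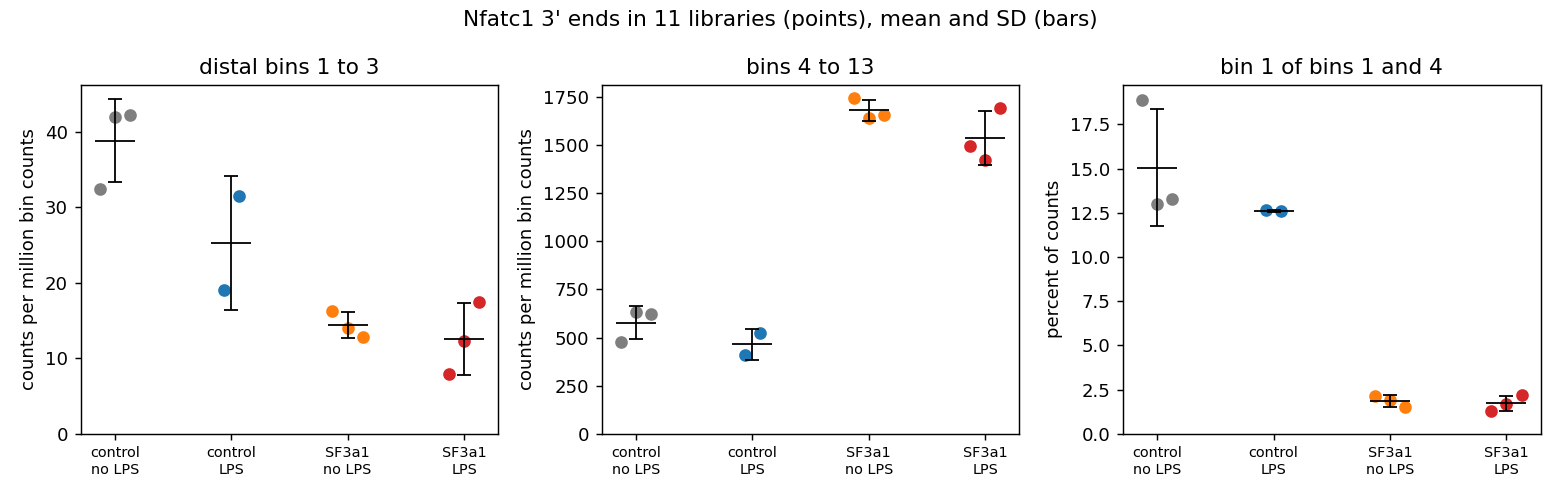
Nfatc1 counts of bins 1 to 3 and of bins 4 to 13 in bin CPM, and bin 1 as a percentage of bins 1 and 4 (y axes, 3 panels), by group (x axis). Points are the 11 libraries, and bars the mean and SD. The distal bins are lower and the other bins higher in every SF3a1 siRNA library than in the control libraries of the same LPS condition.

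Bin 12 (80708034 to 80708173), the first exon at the downstream start, held 10 to 101 counts per library, with a mean of 1.28 bin CPM under either siRNA without LPS. It took 6.98 ± 2.70% of the counts in the 2 first exon bins 12 and 13 with control siRNA without LPS, and 1.98 ± 0.533% with SF3a1 siRNA. With LPS it took 2.94 ± 0.867% (n = 2) and 1.67 ± 0.453%. Its mean level with LPS was higher with SF3a1 siRNA, at 0.999 bin CPM against 0.531 with control siRNA. The lower share came with a larger rise of bin 13, from 18.7 to 59.6 bin CPM. Bin 13, the first exon at the upstream start, went with the rest of the gene, from 13.8 to 22.5 bin CPM in the 3 control libraries without LPS to 59.9 to 67.2 with SF3a1 siRNA. Bins 5 to 11 are shared by the short and long forms. Among them and bin 4, those with at least 5% were bin 11 (24.9 ± 4.97% with control siRNA without LPS), bin 4 (29.0 ± 8.09%), bin 9 (9.02 ± 1.69%), bin 8 (8.07 ± 0.871%), bin 10 (7.62 ± 2.58%) and bin 7 (5.73 ± 0.179%). Replicate 1 libraries held less in bin 4 than the others of their group, for example 19.7% against 32.8 and 34.5% with control siRNA without LPS. The part of the 2 sequencing runs of replicate 1 in this was not tested.

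The share of bins 1 to 3 was lower with LPS in both control libraries (4.44 and 5.70%) than in the 3 without LPS (6.21 to 6.36%), and with SF3a1 siRNA the LPS groups overlapped. The bin test made no call for LPS. No Nfatc1 bin was called for LPS with control siRNA (edgeR diffSpliceDGE, smallest adjusted p = 1, with 0 of 13 bins at an unadjusted p under 0.05), where 0.0801% of the 153624 tested bins were called, in 0.462% of 10609 genes. None was called for LPS with SF3a1 siRNA either (smallest adjusted p = 1, and 0 of 13 at an unadjusted p under 0.05), with 0.0254% of all bins called, in 0.104% of genes. The fitted relative log2 changes of bins 1, 2 and 3 with LPS and control siRNA were -0.37, -0.79 and 0.16. With 2 and 3 libraries and 21 to 190 counts in bin 2, changes of this size did not pass the test.

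At the gene level, LPS lowered Nfatc1 with control siRNA from 768 ± 105 to 577 ± 86.9 CPM. The log2 fold change was -0.41 (SE 0.166, edgeR adjusted p = 0.0888), and the groups overlapped, although each replicate was lower with LPS than the same number without. This call was lost with DESeq2 size factors (adjusted p = 0.126), with the DESeq2 Wald test (adjusted p = 0.106) and without the filter on low counts (adjusted p = 0.148). It was also lost when replicate 2 or 3 of control siRNA without LPS, replicate 1 or 3 of control siRNA with LPS, or replicate 2 or 3 of SF3a1 siRNA without LPS was left out, with log2 fold changes between -0.54 and -0.34 over all libraries left out. With SF3a1 siRNA, Nfatc1 was at 1994 ± 183 and 1794 ± 278 CPM, a log2 fold change with LPS of -0.15 (SE 0.165, adjusted p = 0.733). Whether the 2 LPS responses of Nfatc1 differ was not tested.

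Nfatc2 (ENSMUSG00000027544), the NFAT of T cells that also acts in myeloid cells, was the member that fell most with LPS. Without LPS the control replicates had 63.9, 52.4 and 43.3 CPM, and with LPS 25.6, 25.1 and 14.4 CPM. With SF3a1 siRNA it had 63.1, 67.8 and 62.9 CPM without LPS and 35.5, 25.03 and 39.3 CPM with LPS. The LPS groups lay below the groups without LPS under both siRNAs, with no overlap. The log2 fold change with LPS was -1.29 (SE 0.236, adjusted p = 0.00127) with control siRNA and -0.95 (SE 0.234, adjusted p = 0.0252) with SF3a1 siRNA. Both calls held under all 17 alternatives, with log2 fold changes of -1.44 to -1.07 and -1.09 to -0.79. The difference between them was 0.34 (SE 0.329, adjusted p = 0.806). SF3a1 siRNA changed Nfatc2 by a log2 fold change of 0.28 (SE 0.231, adjusted p = 0.42) without LPS and 0.62 (SE 0.235, adjusted p = 0.0636) with LPS. The second passed the threshold of 0.1 but its groups overlapped. It was lost without replicate 3 of control siRNA with LPS (adjusted p = 0.207), without replicate 1 of SF3a1 siRNA with LPS (0.14) or without its replicate 3 (0.204).

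Nfatc3 (ENSMUSG00000031902), a calcineurin-controlled member found in many tissues, changed less. The control replicates had 112, 119 and 108 CPM without LPS and 93.3, 89.6 and 69.0 CPM with LPS. The SF3a1 siRNA replicates had 129, 134 and 121 CPM without LPS and 125, 86.7 and 130 CPM with LPS. The control groups did not overlap, and LPS gave a log2 fold change of -0.43 (SE 0.167, adjusted p = 0.0786). That call was lost with DESeq2 size factors (adjusted p = 0.11), without the filter on low counts (0.119) and without any one of the 3 replicates of control siRNA without LPS, replicate 2 or 3 of control siRNA with LPS, or replicate 2 or 3 of SF3a1 siRNA without LPS. SF3a1 siRNA gave 0.18 (SE 0.167, adjusted p = 0.484) without LPS, where the groups did not overlap, and 0.44 (SE 0.167, adjusted p = 0.0652) with LPS, where they did. The latter was lost without the filter on low counts (adjusted p = 0.117), without replicate 3 of control siRNA with LPS (0.22), and without replicate 1 (0.175) or 3 (0.212) of SF3a1 siRNA with LPS. LPS with SF3a1 siRNA gave -0.17 (SE 0.167, adjusted p = 0.687). Esrp2 overlaps an exon of Nfatc3 by up to 219 bases on the opposite strand, and the strand setting of the counting was not given in the sources used here.

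Nfat5 (ENSMUSG00000003847), the osmotic stress member, was not called in any comparison. The control replicates had 282, 233 and 237 CPM without LPS and 341, 259 and 271 CPM with LPS. The SF3a1 siRNA replicates had 375, 285 and 290 CPM without LPS and 386, 174 and 395 CPM with LPS. Replicate 2 of SF3a1 siRNA with LPS was the lowest of all 12 libraries. The groups overlapped except for SF3a1 siRNA without LPS. The log2 fold changes were 0.21 (SE 0.259) for LPS with control siRNA, 0.34 (SE 0.259) for SF3a1 siRNA without LPS, 0.13 (SE 0.259) for SF3a1 siRNA with LPS and 0.01 (SE 0.258) for LPS with SF3a1 siRNA (adjusted p = 0.631, 0.385, 0.75 and 0.994). Without replicate 2 of SF3a1 siRNA with LPS, the SF3a1 siRNA change with LPS was 0.43 (adjusted p = 0.0869). Nfatc4, the remaining calcineurin-controlled gene of the family, had 0 to 17 counts per library and was not tested.

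LPS with control siRNA called 32.1% of the 14983 tested genes, 13.8% higher and 18.3% lower, and 3 of the 4 members lower. SF3a1 siRNA with LPS called 38.8% of genes, 18.4% higher and 20.4% lower, and of the 3 members other than Nfatc1 2 were higher. Without LPS 0 of the 3 were called with SF3a1 siRNA (edgeR, 0 at an unadjusted p under 0.05, and 0 by the DESeq2 Wald test), against 33.8% of all tested genes, 13.7% higher and 20.1% lower. With SF3a1 siRNA, LPS called 10.7% of genes, 6.6% higher and 4.06% lower, and 1 of the 4 members lower. The difference between the 2 LPS responses was called for 3.47% of genes and for 0 of those 3 members (edgeR, 0 at an unadjusted p under 0.05, and 0 by the DESeq2 Wald test).

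Compared per kilobase of counted exon, the order in control cells without LPS was Nfatc1 (103 ± 14.1 CPM per kb), Nfatc3 (18.9 ± 0.943), Nfat5 (13.7 ± 1.48) and Nfatc2 (5.03 ± 0.973). With LPS, Nfat5 (15.8 ± 2.44) and Nfatc3 (14.03 ± 2.18) did not differ beyond their spread, nor did they with SF3a1 siRNA with LPS (17.3 ± 6.81 and 18.99 ± 3.92). Nfatc1 stayed first and Nfatc2 last in all 4 groups. The lengths include every annotated bin, also those with few or no counts, such as the short last exon of Nfatc2. That of Nfat5 (18.4 kb) includes bins 6 and 7 (3227 and 1316 bases), annotated only in retained intron transcripts. The order of Nfatc3 and Nfat5 may thus depend on the annotation, and the length of Nfatc1 rests on the uncertain set of transcripts.

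Of the 72 exon bins of Nfatc2, Nfatc3 and Nfat5, 54 passed the filter on low counts, and none was called in any of the 4 comparisons, in the reported test or in its 15 alternatives. The bin test missed most small changes planted in simulated data, so a bin without a call may still have changed. Under SF3a1 siRNA 0.626% of all tested bins were called without LPS and 0.492% with LPS, in 6.16% and 5.03% of the tested genes. The counts behind these shares of bins, 961 and 756, were 2113 and 1793 with a replicate block. At an unadjusted p under 0.05 there were 0 of 54 bins without LPS and 2 of 54 with LPS. These 2 were the adjoining Nfat5 bins 19 (chr8:107355770-107355819) and 20, and they were chosen for mention after their values were seen. Bin 20 is 3 bases long (chr8:107355820-107355822) and continues the exon of bin 19, so the 2 bins are not separate signals. Bin 19 held 0.140 and 0.581% of Nfat5 bin counts with control siRNA and LPS, and 0.829, 0.618 and 0.790% with SF3a1 siRNA and LPS (edgeR adjusted p = 0.89), with 20 to 123 counts per library. Replicate 1 of the control was low, and the groups did not overlap for bin 19. For bin 20 they did, at 0.133 and 0.553% with control siRNA and 0.755, 0.464 and 0.726% with SF3a1 siRNA.

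The long last exons of these genes kept their shares within a few percentage points. Bin 2 of Nfatc2 (chr2:168476413-168480249), its long last exon, held 54.0 ± 4.14% with control siRNA and 52.1 ± 5.75% with SF3a1 siRNA without LPS, while its short last exon (bins 7 to 9) held 0 to 3 counts per library. Bin 10 of Nfatc3 (chr8:106127918-106130537) held 40.6 ± 0.608% and 38.7 ± 3.11%. Bin 34 of Nfat5 (chr8:107373531-107378792) held 28.5 ± 4.02% and 26.4 ± 3.65%. With LPS these 3 bins held 49.7 ± 0.366%, 38.3 ± 2.83% and 24.8 ± 2.73% with control siRNA (n = 2) and 52.3 ± 3.81%, 40.7 ± 1.43% and 26.4 ± 2.79% with SF3a1 siRNA (n = 3). The groups overlapped for all 3 bins with and without LPS.

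**Figure D4:**
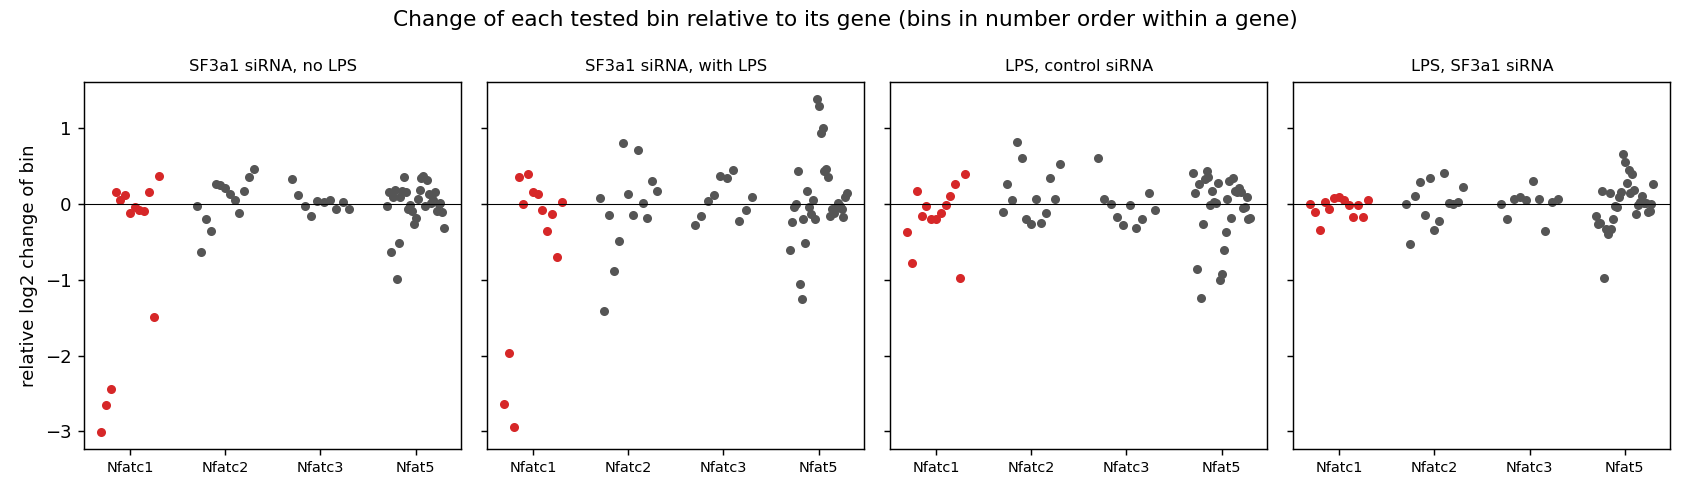
Fitted log2 change of each tested bin relative to its gene (y axis) for the 4 members (x axis, bins in number order within a gene), 1 panel per comparison. Nfatc1 is in red. Bins 1 to 3 of Nfatc1 are the lowest points in both SF3a1 siRNA panels, and no tested bin of the other genes was called.

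Genes around NFAT were counted by lists written from general knowledge of the pathway, but chosen with earlier results of these data known. Their shares of called genes therefore describe these data and are no independent support. The calcineurin list holds the phosphatase subunits and its regulators, and 14 of 16 genes were tested. Without LPS SF3a1 siRNA raised 1 and lowered 3 of them, with a median log2 fold change of -0.05 (all tested genes, -0.02). Rcan1, an inhibitor of calcineurin that is itself an NFAT target, rose from 231 ± 15.5 to 1079 ± 195 CPM (SD, n = 3, log2 fold change 2.23, SE 0.154). The catalytic subunit Ppp3cb fell from 121 ± 17.3 to 42.2 ± 1.07 CPM (-1.52, SE 0.171) and Ppp3cc from 17.6 ± 4.84 to 7.53 ± 0.644 CPM (-1.22, SE 0.26). With LPS 3 rose and 2 fell (median 0.24, all genes -0.04), again Rcan1 (368 ± 37.1 to 1055 ± 20.9 CPM) upward and Ppp3cb and Ppp3cc downward. With a replicate block 7 rose and 2 fell, where the block called 50.9% of all tested genes, and without the replicate 1 libraries, where 45.1% were called, 5 rose. For SF3a1 siRNA without LPS the block called 47.1% of all genes, for LPS with control siRNA 43.9% and for LPS with SF3a1 siRNA 20.8%, and without the replicate 1 libraries the shares were 41.3, 34.6 and 15.1%. The lists' counts under these settings stand beside those shares, not beside the ones of the reported test. With control siRNA, LPS raised Rcan1 and lowered 4 genes, among them Rcan3 (59.7 ± 6.904 to 24.7 ± 10.02 CPM). Under SF3a1 siRNA, LPS called none of the 14 (edgeR, 2 at an unadjusted p under 0.05, and 2 by the DESeq2 Wald test), and 1 up and 2 down with the block. In the calcineurin list 28.6% of the tested genes were called with SF3a1 siRNA without LPS and 35.7% with LPS (33.8 and 38.8% of all tested genes), and 35.7% and 0% for LPS with control and with SF3a1 siRNA (32.1 and 10.7%).

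Calcium entry genes act upstream of calcineurin. Of 15 tested, SF3a1 siRNA raised 4 and lowered 0 without LPS (median 0.14) and raised 5 and lowered 2 with LPS (median 0.46), or 9 and 4 with the block (50.9% of all genes). Orai2, a subunit of the store-operated calcium channel, rose from 47.7 ± 2.81 to 117 ± 5.84 CPM without LPS and from 41.5 ± 3.23 to 124 ± 14.4 CPM with LPS. Syk, the kinase below ITAM adaptors, rose without LPS from 71.6 ± 6.35 to 118 ± 9.48 CPM. With LPS Fcer1g, an ITAM adaptor, fell from 646 ± 135 to 398 ± 56.5 CPM. Under control siRNA, LPS raised 4 and lowered 5 (median -0.20): Stim2, the sensor of calcium in the endoplasmic reticulum, rose from 46.4 ± 2.18 to 125 ± 27.02 CPM, and the IP3 receptor Itpr3 fell from 258 ± 11.5 to 72.9 ± 16.5 CPM. Under SF3a1 siRNA it raised 1 and lowered 2, or 5 with the block. In the calcium entry list 26.7% of the tested genes were called with SF3a1 siRNA without LPS and 46.7% with LPS (33.8 and 38.8% of all tested genes), and 60% and 20% for LPS with control and with SF3a1 siRNA (32.1 and 10.7%).

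Kinases that return NFAT to the cytoplasm and its cytoplasmic anchors form the next list. With SF3a1 siRNA, of 13 tested, 4 rose and 0 fell without LPS (median 0.21) and 7 rose and 0 fell with LPS (median 0.30). Homer3, a scaffold that holds NFAT in the cytoplasm, rose from 25.98 ± 2.84 to 54.9 ± 2.55 CPM without LPS and from 12.5 ± 4.44 to 40.2 ± 2.34 CPM with LPS. The kinases Dyrk1b (1.86 ± 0.713 to 4.69 ± 1.43 CPM) and Dyrk2 (11.4 ± 2.75 to 23.4 ± 5.61 CPM) rose without LPS. Without the replicate 1 libraries 1 of the list fell without LPS. In control cells LPS lowered 5 and raised 0 (median -0.13), among them Homer3 (log2 fold change -1.05, SE 0.214, adjusted p = 0.00266). LPS with SF3a1 siRNA raised 1 and lowered 2. In the kinase and anchor list 30.8% of the tested genes were called with SF3a1 siRNA without LPS and 53.8% with LPS (33.8 and 38.8% of all tested genes), and 38.5% and 23.1% for LPS with control and with SF3a1 siRNA (32.1 and 10.7%).

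Of 14 tested partner factors that bind DNA with NFAT, SF3a1 siRNA raised 7 and lowered 1 without LPS (median 0.66). The AP-1 genes Fos (99.6 ± 20.2 to 356 ± 59.5 CPM), Fosl1 (8.61 ± 1.71 to 61.3 ± 4.57 CPM) and Fosl2 (127 ± 18.5 to 844 ± 153 CPM) led them, and Mef2c fell from 113 ± 18.3 to 65.4 ± 13.8 CPM. With LPS 6 rose and 1 fell (median 0.46), or 2 fell with the block. The one that fell, Maf, was at 18.8 ± 11.6 CPM with control siRNA and 0.656 ± 0.222 CPM with SF3a1 siRNA. In control cells LPS raised 6 and lowered 2 (median 0.19), or lowered 4 without the replicate 1 libraries. In SF3a1 siRNA cells LPS raised 4 and lowered 2. In the partner list 57.1% of the tested genes were called with SF3a1 siRNA without LPS and 50% with LPS (33.8 and 38.8% of all tested genes), and 57.1% and 42.9% for LPS with control and with SF3a1 siRNA (32.1 and 10.7%).

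Genes of RANKL signalling and known repressors of Nfatc1 make up a list of their own. Of 10 tested, SF3a1 siRNA raised 5 and lowered 2 without LPS (median 0.41) and raised 7 and lowered 1 with LPS (median 0.70). Tnfrsf11a, the RANKL receptor, rose from 191 ± 13.1 to 387 ± 22.8 CPM without LPS and from 103 ± 8.13 to 281 ± 75.8 CPM with LPS. Mitf, a factor of the osteoclast lineage, rose from 99.9 ± 2.71 to 264 ± 18.2 CPM and from 143 ± 20.3 to 285 ± 65.6 CPM. Irf8, a repressor of Nfatc1, fell from 92.7 ± 9.66 to 35.4 ± 11.5 CPM without LPS and from 169 ± 60.4 to 35.3 ± 12.9 CPM with LPS. Bcl6, another repressor, rose without LPS from 60.7 ± 11.9 to 99.4 ± 12.5 CPM. LPS with control siRNA raised 4 and lowered 4 (median 0.09), among them Spi1, a macrophage lineage factor, upward (495 ± 53.05 to 848 ± 57.3 CPM) and Csf1r, the M-CSF receptor, (2935 ± 270.4 to 1425 ± 120.2 CPM) downward. LPS with SF3a1 siRNA raised 1 and lowered 2. With the block 2 fell with SF3a1 siRNA and LPS, and 2 rose with LPS and SF3a1 siRNA. In the RANKL and repressor list 70% of the tested genes were called with SF3a1 siRNA without LPS and 80% with LPS (33.8 and 38.8% of all tested genes), and 80% and 30% for LPS with control and with SF3a1 siRNA (32.1 and 10.7%).

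Of 12 tested osteoclast genes under NFATc1, SF3a1 siRNA raised 8 and lowered 0 without LPS (median 1.85), where 13.7% of all tested genes were higher, and raised 7 and lowered 0 with LPS (median 1.24), where 18.4% were. Tcirg1, a proton pump subunit, rose from 318 ± 70.7 to 805 ± 144 CPM without LPS and from 627 ± 145 to 1037 ± 185 CPM with LPS. Src, the kinase needed for the ruffled border, rose from 2.89 ± 2.79 to 36.7 ± 30.4 CPM without LPS, and Atp6v0d2, a fusion and proton pump gene, rose from 11.1 ± 10.1 to 99.3 ± 65.7 CPM with LPS. Car2, carbonic anhydrase, was at 402 ± 169 and 377 ± 57.6 CPM and Clcn7, a chloride transporter, at 53.5 ± 4.91 and 48.98 ± 8.32 CPM, and neither was called without LPS. In control cells LPS raised 3 and lowered 1 (median 0.89), with Mmp9, a collagen-degrading protease, at 0.2800 ± 0.0446 before and 66.1 ± 44.9 CPM after. With the block, which called 43.9% of all genes here, 7 rose and 2 fell. In SF3a1 siRNA cells it raised 4 and lowered 1, or 7 and 2 with the block (20.8% of all genes). In the osteoclast list 66.7% of the tested genes were called with SF3a1 siRNA without LPS and 58.3% with LPS (33.8 and 38.8% of all tested genes), and 33.3% and 41.7% for LPS with control and with SF3a1 siRNA (32.1 and 10.7%).

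Of 8 osmotic stress genes under NFAT5, SF3a1 siRNA raised 1 and lowered 1 without LPS (median 0.23) and raised 3 and lowered 0 with LPS (median 0.43). Slc5a3, the inositol transporter, rose with LPS from 11.1 ± 2.16 to 78.4 ± 28.8 CPM, and Akr1b3, aldose reductase, rose from 92.5 ± 20.9 to 202 ± 58.7 CPM. LPS with control siRNA lowered 2, Slc5a3 (89.00 ± 25.7 to 11.1 ± 2.16 CPM) and the taurine transporter Slc6a6 (616 ± 126 to 377 ± 118 CPM), and raised Hspa1b (4.93 ± 3.68 to 20.6 ± 17.6 CPM), whose near-identical copy Hspa1a makes its unique reads uncertain. LPS with SF3a1 siRNA raised 1 and lowered 0. With the block the counts were 2 up and 2 down for SF3a1 siRNA without LPS, and 3 up and 1 down for LPS with SF3a1 siRNA. In the osmotic stress list 25% of the tested genes were called with SF3a1 siRNA without LPS and 37.5% with LPS (33.8 and 38.8% of all tested genes), and 37.5% and 12.5% for LPS with control and with SF3a1 siRNA (32.1 and 10.7%).

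Of 22 tested 3′ end processing factors, SF3a1 siRNA raised 1 and lowered 5 without LPS (median -0.13) and raised 3 and lowered 6 with LPS (median -0.11). Papola, the poly(A) polymerase, fell from 270.1 ± 7.55 to 164 ± 11.2 CPM without LPS, Cstf3, a cleavage stimulation subunit, from 46.96 ± 1.64 to 31.5 ± 2.82 CPM, and Snrnp70, the U1 snRNP protein, from 338 ± 13.97 to 236 ± 20.1 CPM. Cpsf2 rose from 151 ± 11.3 to 212 ± 7.59 CPM. With the block or without the replicate 1 libraries 3 rose without LPS, and 5 with LPS. LPS raised Pcf11 (47.5 ± 1.68 to 64.7 ± 5.95 CPM) and lowered Cstf1 (121 ± 8.103 to 94.8 ± 5.34 CPM) with control siRNA and called none of the 22 with SF3a1 siRNA (edgeR, 0 at an unadjusted p under 0.05, and 0 by the DESeq2 Wald test). In the list of 3′ end factors 27.3% of the tested genes were called with SF3a1 siRNA without LPS and 40.9% with LPS (33.8 and 38.8% of all tested genes), and 9.09% and 0% for LPS with control and with SF3a1 siRNA (32.1 and 10.7%).

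**Figure D5:**
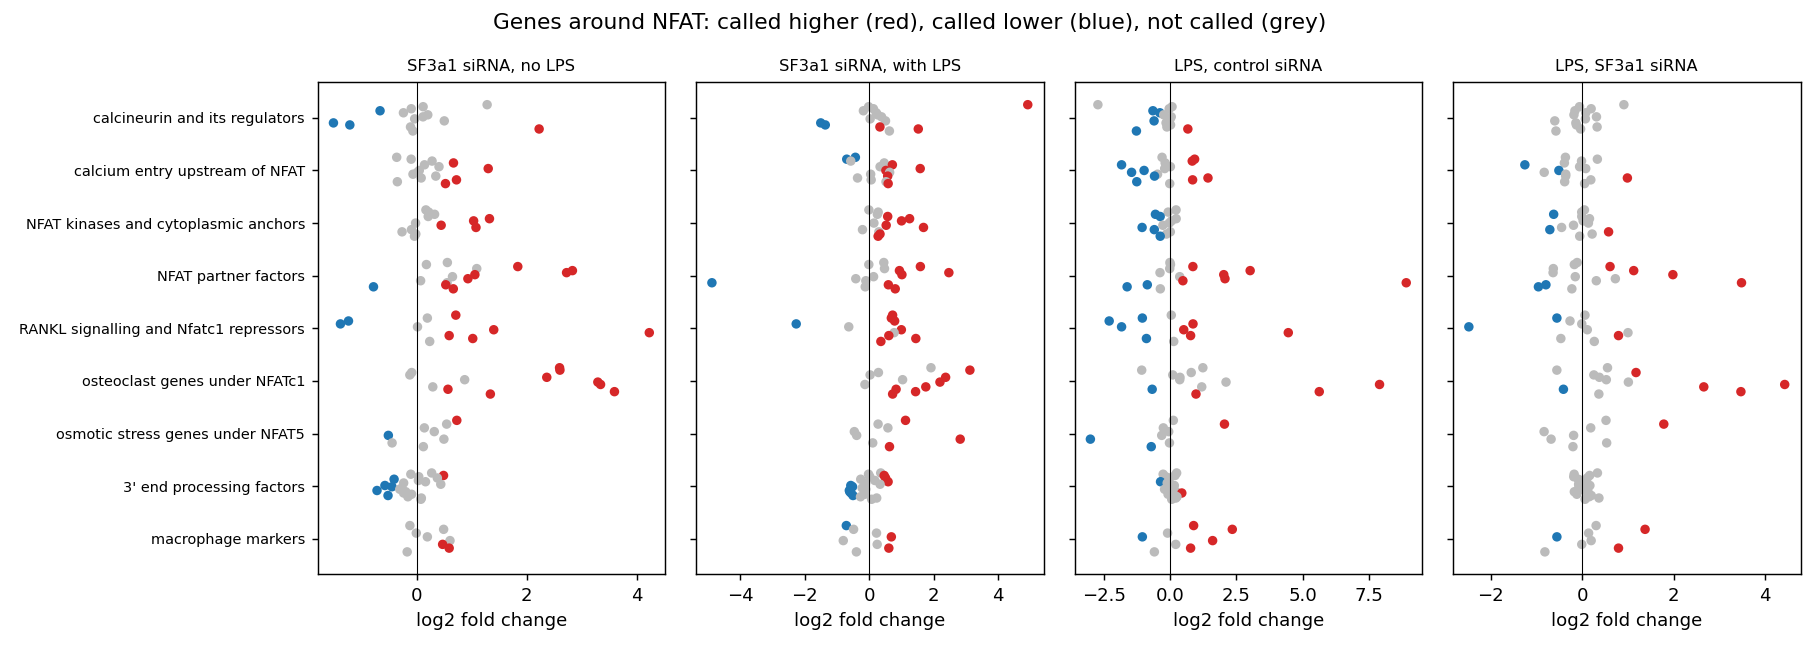
Log2 fold change (x axis, its own scale in each panel) of each tested gene in 9 lists (y axis), 1 panel per comparison. Red points were called higher, blue points lower and grey points not called. With SF3a1 siRNA 8 of 12 osteoclast genes are red without LPS and 7 with LPS, against 13.7 and 18.4% of all tested genes called higher.

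The cultures carried macrophage markers throughout. The 8 macrophage markers summed to 9729 to 16338 CPM per library, led by Lyz2, and 2 of 8 were called higher with SF3a1 siRNA without LPS (Spi1 and Lyz2), or 4 with the block. With LPS 2 were higher and 1, Adgre1, lower, or 4 lower with the block. LPS raised 4 and lowered 1 with control siRNA and raised 2 and lowered 1 with SF3a1 siRNA. In the macrophage marker list 25% of the tested genes were called with SF3a1 siRNA without LPS and 37.5% with LPS (33.8 and 38.8% of all tested genes), and 62.5% and 37.5% for LPS with control and with SF3a1 siRNA (32.1 and 10.7%). The 7 T cell markers summed to 1.81 to 13.8 CPM, most of it Lck, with Cd8a and Trac at 0 in all libraries. Lck, the 1 of the 7 that was tested, was higher with LPS under control siRNA (2.26 ± 0.436 to 12.1 ± 1.903 CPM) and lower with SF3a1 siRNA under LPS (4.74 CPM). The 4 B cell markers summed to at most 0.544 CPM (led by Cd79a) and the 4 fibroblast markers to at most 0.316 CPM (led by Col1a1), and none of these was tested.

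Over 9303 other tested genes whose mean level reached 10 CPM, the 5 whose log2(CPM + 1) values followed those of Nfatc1 most closely over the 12 libraries were Impad1 (r = 0.979), Phlda3 (0.977), Ank (0.975), Aplp2 (0.975) and ENSMUSG00000074873 (0.975). Phlda3 was at 8.42 CPM with control siRNA and 182 CPM with SF3a1 siRNA without LPS, and Ank at 1753 and 6346 CPM. These libraries share their 4 groups, so the values describe group differences as much as likeness between cultures. Nfatc3 ranked 1383 in that order (r = 0.699), Nfatc2 2357 (0.513) and Nfat5 3324 (0.311).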

How the data were processed

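Gene counts of 12 libraries and exon bin counts of 11 were analysed. PolyA RNA was read single end on an Ion Proton. The authors dropped reads under 30 nt, used GSNAP against mm10 and retained uniquely aligned reads. The deposited counts per gene and per bin are raw values the authors made with htseq-count (HTSeq 0.5.4p per the labels) and DEXSeq's counting script on an Ensembl annotation. Reads in no annotated gene, 17.8 to 27.2% of each library, stayed out of library sizes.

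Genes were tested with edgeR 4.0.16 (quasi-likelihood, TMM, filterByExpr, 14983 genes, all 12 libraries) and bins with edgeR's diffSpliceDGE (153624 bins), in R 4.3.3, at a Benjamini-Hochberg adjusted p of at most 0.1. Standard errors come from the fold change and the F statistic. The LPS and SF3a1 siRNA comparisons share groups and hence libraries. Bin coordinates were rebuilt from GENCODE vM21. Both tests were tested on simulated data. There the bin test missed nearly all of the smaller planted changes, and the share of its calls that were false was several times the threshold, far more than for the gene test, so many called bins may be false. The simulated data held fewer changed bins than were called for SF3a1 siRNA. How far the false share carries over to those comparisons was not tested. The gene test missed many of the smaller changes, and its false share was slightly above the threshold for SF3a1 siRNA with LPS and LPS with SF3a1 siRNA. Alternatives were DESeq2 1.42.0, limma 3.58.1, no or lower filters, a replicate block, and leaving out libraries. Leaving out all replicate 1 libraries was chosen after seeing the data.

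Same-numbered libraries deviated together in 18 of 18 pairs (correlation 0.143 to 0.6, median 0.356), so the numbers pair the samples. Replicate 1 stood apart: its libraries correlated with other numbers at -0.523 to -0.169, while replicates 2 and 3 correlated with each other at 0.0401 to 0.345 (above 0.1 in 10 of 12 pairs). Deviations from a group mean cancel within the group, so negative values between different numbers are partly built in. The positive values of replicates 2 and 3 are not. The labels do not say that replicates were separate experiments, so p-values measure the spread between these cultures.

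The members and lists were chosen with earlier results of these data known. Named genes are Sf3a1, the family, and up to 3 called genes in each direction by smallest p in each list and comparison. The text gives the main ones. The most abundant gene of a list with no call (Tyrobp, Csnk1a1, Snrnp70, Lyz2, Cd79a, Col1a1) is also named. Named bins are the Nfatc1 bins holding at least 5%, its distal and first exon bins, and first or last exon bins of other members. Other bins of those members that hold at least 5% are not named. A gene that this rule names is not reported here. Car2, Clcn7 and Nfat5 bins 19 and 20 were added after their values were seen.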

Additional observations from a re-analysis of the deposited data

Results flagged for a closer look

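Of the 115 tested genes in the lists other than the family, 5 (4.35%, against 3.47% of all tested genes) had LPS responses that differed between SF3a1 and control siRNA by the interaction term of the edgeR fit. They are named because that term called them. It called 11.7% of all tested genes with a replicate block and 6.82% without the replicate 1 libraries. The lists' own shares under these settings are not given. Fosl1, an AP-1 partner of NFAT, rose with LPS from 8.61 to 69.9 CPM with control siRNA and from 61.3 to 134 CPM with SF3a1 siRNA (difference of log2 fold changes -1.90, adjusted p = 0.029). Id2, a repressor of Nfatc1, fell from 55.5 to 11.2 CPM with control siRNA and was at 23.4 and 19.5 CPM with SF3a1 siRNA (difference 2.03, adjusted p = 0.0134). Slc5a3, the inositol transporter under NFAT5, fell from 89.0 to 11.1 CPM with control siRNA and was at 125 and 78.4 CPM with SF3a1 siRNA (difference 2.33, adjusted p = 0.017). Mmp9 went from 0.280 to 66.1 CPM with control siRNA and from 2.76 to 60.3 CPM with SF3a1 siRNA (difference -3.48, adjusted p = 0.0542). Its mean levels with LPS were close, so this difference rests on the levels without LPS, which were near the floor with control siRNA. Lck went from 2.26 to 12.1 CPM with control siRNA and from 2.77 to 4.74 CPM with SF3a1 siRNA (difference -1.65, adjusted p = 0.0546).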

How the results depend on the processing

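The counts of called bins for Nfatc2, Nfatc3 and Nfat5 stayed at 0 under every alternative run. The share of Nfatc1 bins 1 to 3 rests on no fit. Leaving out 1 library cannot move its group mean by 1 SD, so its stability was not tested. Counts of called genes and bins moved most. With a replicate block, 3115 genes were called for LPS with SF3a1 siRNA and 1756 for the interaction (1598 and 520 in the reported test), and 285, 2113, 1793 and 105 bins for LPS with control siRNA, SF3a1 siRNA without LPS, SF3a1 siRNA with LPS and LPS with SF3a1 siRNA (123, 961, 756 and 39 in the reported test). The block changed no call of a member. The interaction gave 966 genes with the DESeq2 Wald test and 930 without a filter, and limma-voom gave 21 bins for LPS with SF3a1 siRNA. Leaving out 1 library gave 1050 to 2005 genes for LPS with SF3a1 siRNA, 273 to 711 for the interaction, and 49 to 158, 527 to 1131, 101 to 888 and 26 to 42 bins in the order above, the lowest of the third without replicate 1 of control siRNA with LPS, which leaves 1 bin library in that group, assumed to vary like the other groups. Without all replicate 1 libraries the interaction gave 1012 genes and SF3a1 siRNA without LPS 1466 bins.

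Nfatc1 with LPS and control siRNA had a log2 fold change of -0.38 with DESeq2 size factors, -0.38 by the Wald test and -0.44 without a filter (-0.54 to -0.34 with libraries left out). Nfatc3 had -0.40 with DESeq2 size factors and -0.45 without a filter (-0.52 to -0.31). With SF3a1 siRNA and LPS, Nfatc3 had 0.44 without a filter (0.31 to 0.60), Nfatc2 0.39 to 0.79 and Nfat5 -0.049 to 0.43. Nfatc1 with SF3a1 siRNA without LPS had 1.19 without all replicate 1 libraries (1.30 to 1.53 with 1 library left out). Changes near 0 turned sign: Nfat5 for LPS with SF3a1 siRNA at -0.0104 with DESeq2 size factors, -0.0105 by the Wald test, -0.034 with the block and -0.013 without the replicate 1 libraries (-0.18 to 0.30), Nfat5 in the interaction (-0.39 to 0.093), Sf3a1 for LPS with SF3a1 siRNA (-0.019 to 0.38), Snrnp70 in the interaction at -0.029 with DESeq2 size factors and by the Wald test (-0.051 to 0.087) and Tyrobp in it (-0.12 to 0.21). Relative changes of Nfatc1 bins for LPS with SF3a1 siRNA ran from -0.30 to 0.30 (bin 1, 0.25 without the replicate 1 libraries), -0.30 to 0.15 (bin 2, 0.015) and -0.56 to 0.20 (bin 3, 0.28), and of bin 3 with control siRNA from -0.015 to 0.30. The causes were not tested.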
